A study of Mus musculus with 3 samples.

Results

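Renal phosphate and proton exchange was described from 10 genes of the 32285 in the count tables: the phosphate cotransporters Slc34a1, Slc34a3, Slc20a1 and Slc20a2, the sodium/proton exchangers Slc9a3 and Slc9a8, the scaffold proteins Slc9a3r1 and Pdzk1, and the hormone receptor genes Kl and Pth1r. They were chosen by name for their function, and all 10 were found, each with a single gene identifier. The kidney filters phosphate freely and takes most of it back in the proximal tubule, through sodium-coupled transporters in the brush border. Parathyroid hormone and the bone hormone FGF23 lower this uptake by having the transporters withdrawn from the membrane. The proximal tubule also secretes protons in exchange for sodium, mainly through NHE3, the product of Slc9a3, and thereby takes back bicarbonate.

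The data were droplet single-cell counts from whole kidneys of male mice aged 28 weeks, digested with enzymes and cleared of red cells, debris and dead cells. Mice with both Lepr copies mutated (db/db) have no signalling form of the leptin receptor and become obese and diabetic, while db/m mice keep 1 normal copy and stay lean. A db/db group was fed 60% fructose, another db/db group a diet without fructose, and a db/m group that same diet, each for 20 weeks from the age of 8 weeks. The groups are called db/db fructose, db/db control and db/m below. Each gave 1 library, and how many mice a library holds is not stated. No difference between libraries therefore has a replicate check, no test was run, and every 95% interval covers counting error only. Proximal tubule cells dominate whole kidney, and a class holds both early and late segments, so a level of a class depends on its mix of cells.

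Cells kept for db/db fructose, db/db control and db/m numbered 16043, 16223 and 9950, with medians of 1530, 1628 and 1687 unique molecular identifiers (UMIs, each a counted RNA molecule) per cell. Mitochondrial genes gave a median of 10.6%, 24.7% and 15.1% of a cell's UMIs, so the db/db control library stood apart. Pairs of libraries shared 780, 379 and 509 barcode sequences, at most 3.83% of a library. Clusters were named from marker genes that included none of the 10. Proximal tubule-like cells numbered 8831, 6593 and 6034, which was 55.0%, 40.6% and 60.6% of cells, while unnamed clusters held 5.24%, 20.5% and 2.75%. Podocyte-like cells numbered only 3, 1 and 36.

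Promoters of 9 of the 10 genes were matched in RefSeq (GRCm38.p6), as windows of 250 bases before to 50 bases after a transcription start. The first 2 below belong to the brush border phosphate cotransporters, and the other two to the scaffold genes that were lower in the db/db control library than in db/m. Each runs from the 5′ to the 3′ end of the gene's own strand. The Slc34a1 window is chr13:55399398-55399697 on the plus strand, and its capitals mark GTTAAT (a half-site of the factor HNF1, read on either strand) and TATAAA (the letters of a TATA box, here 16 bases after the start). The Slc34a3 window is chr2:25234185-25234484 on the minus strand, with AGGTCA (a nuclear receptor half-site) in capitals on either strand. The Pdzk1 window is chr3:96829815-96830114 on the plus strand, with CAAAGTCCA (a site of the type HNF4 binds). The Slc9a3r1 window is chr11:115163091-115163390 on the plus strand, with GGGCGG (a GC box) in capitals on either strand.
Slc34a1: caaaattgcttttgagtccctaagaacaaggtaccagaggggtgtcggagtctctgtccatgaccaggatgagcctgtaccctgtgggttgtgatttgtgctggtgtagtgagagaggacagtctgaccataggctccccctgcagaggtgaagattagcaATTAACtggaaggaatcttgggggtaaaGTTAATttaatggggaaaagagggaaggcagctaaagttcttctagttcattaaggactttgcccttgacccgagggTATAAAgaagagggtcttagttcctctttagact
Slc34a3: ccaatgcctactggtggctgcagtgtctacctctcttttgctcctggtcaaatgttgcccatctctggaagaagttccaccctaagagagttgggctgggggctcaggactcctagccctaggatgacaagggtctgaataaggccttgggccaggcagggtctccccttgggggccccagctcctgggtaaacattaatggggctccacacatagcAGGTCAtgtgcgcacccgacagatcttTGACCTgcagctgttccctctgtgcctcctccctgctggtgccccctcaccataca
Pdzk1: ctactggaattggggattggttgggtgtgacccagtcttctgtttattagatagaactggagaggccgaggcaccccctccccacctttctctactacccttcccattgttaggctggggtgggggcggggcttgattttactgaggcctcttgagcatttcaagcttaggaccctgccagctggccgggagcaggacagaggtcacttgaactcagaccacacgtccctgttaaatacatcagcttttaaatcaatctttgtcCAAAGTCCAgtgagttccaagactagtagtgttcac
Slc9a3r1: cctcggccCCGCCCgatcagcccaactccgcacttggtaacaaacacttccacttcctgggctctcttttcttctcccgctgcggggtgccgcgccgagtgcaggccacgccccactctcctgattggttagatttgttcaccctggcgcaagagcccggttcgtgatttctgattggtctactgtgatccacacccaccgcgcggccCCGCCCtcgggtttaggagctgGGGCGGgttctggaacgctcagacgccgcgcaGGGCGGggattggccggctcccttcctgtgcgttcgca

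Slc34a1 held GTTAAT at 2 places on opposite strands, and none of the other 8 matched genes held it. Of all 32851 promoter windows, 7.1% held GTTAAT and 13.6% held TATAAA, which among the members also occurred in Slc20a1. CAAAGTCCA was found in 0.475% of all windows and, among the members, only in Pdzk1. Its first 6 letters alone, CAAAGT, occurred in 14.4%. AGGTCA occurred in 16.3% of windows and in Slc34a3, Slc20a1 and Pdzk1. GGGCGG occurred in 35.7% of windows and in 7 members, among them Slc9a3r1 with 4 copies, but in neither Slc34a1 nor Slc34a3. CACGTG, the E-box, occurred in 7.15% of windows and in Slc20a1 and Slc9a3. These matches describe letters and not binding.

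Slc34a1 (chr13:55398187-55415592, mm10) encodes NaPi-IIa, the main sodium-phosphate cotransporter of the proximal brush border. In proximal tubule-like cells it stood at 7009, 5660 and 4794 CPM in db/db fructose, db/db control and db/m, where CPM is a gene's summed count per 1000000 UMIs summed over a class. These cells held 85.1%, 71.6% and 89.2% of all its UMIs. It was detected nearly everywhere within the class: with each cell thinned to 1000 UMIs, 99.1%, 98.4% and 96.2% of proximal tubule-like cells had a UMI of it. Without thinning the shares were 99.1%, 99.2% and 97.0%. Thinning left out 1245, 275 and 1123 shallower cells of the class.

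Free RNA can give UMIs in droplets of other cells. Mononuclear phagocyte-like cells, which should not express it, stood at 690, 682 and 476 CPM, or 9.84%, 12.1% and 9.93% of the proximal level. After thinning, 39.1%, 43.1% and 26.6% of them had a UMI of Slc34a1. Their median depth was 3055, 2809.5 and 3480.5 UMIs, against 1495, 1603 and 1531.5 UMIs in proximal tubule-like cells. Connecting tubule and principal-like cells had 576, 598 and 449 CPM, at or below the phagocyte-like values, and thick ascending limb-like cells had 914, 742 and 657 CPM.

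Distal convoluted tubule-like cells had more Slc34a1, 1875 CPM in db/db fructose, 2207 CPM in db/db control and 735 CPM in db/m. These cells fell into 2 clusters. The cluster led by Slc12a3 and Abca13 had 2459, 3025 and 1061 CPM and carried the 16 proximal tubule marker genes at a summed 8233, 7922 and 8323 CPM, against 17452, 12832 and 18783 CPM in proximal tubule-like cells. The cluster led by Slc12a3 and Pvalb had 462, 449 and 384 CPM of Slc34a1 with 2337, 2301 and 3154 CPM of those markers. Of the 16 markers, 6 were higher and 2 lower by 1.5-fold in distal convoluted tubule-like cells of db/db control over db/m. Their part in the distal values was not tested. With each library clustered on its own, the distal log2 ratio of db/db control over db/m was -0.02, against 1.59 with the libraries clustered together.

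Slc34a3 (chr2:25228898-25234364, minus strand) encodes NaPi-IIc, the second brush border phosphate cotransporter. It stood at 74.3 CPM in db/db fructose, 74.2 CPM in db/db control and 41.4 CPM in db/m proximal tubule-like cells. Phagocyte-like cells had 11.8, 6.80 and 8.14 CPM from 8, 4 and 2 counts. In the other classes with at least 100 cells in each library its highest values were 29.0 CPM in intercalated-like cells of db/db fructose and 27.7 CPM in distal convoluted tubule-like cells of db/db control.

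The ubiquitous phosphate importers encoded by Slc20a1 (Pit-1; chr2:129198764-129211616) and Slc20a2 (Pit-2; chr8:22476788-22569612) are better known from other tissues, though Pit-2 is also in the proximal brush border. Slc20a1 stood at 131, 135 and 89.5 CPM in proximal tubule-like cells of db/db fructose, db/db control and db/m. It was lower in every other class with at least 100 cells in each library, with 52.8, 45.5 and 44.4 CPM in endothelium-like cells and 15.9, 13.4 and 14.3 CPM in connecting tubule and principal-like cells. Slc20a2 stood at 52.8, 73.1 and 38.5 CPM in proximal tubule-like cells, against 20.9, 26.4 and 15.5 CPM in thick ascending limb-like cells. A further annotated gene lies within Slc20a2 on the same strand, so its counts are uncertain.

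**Figure D1:**
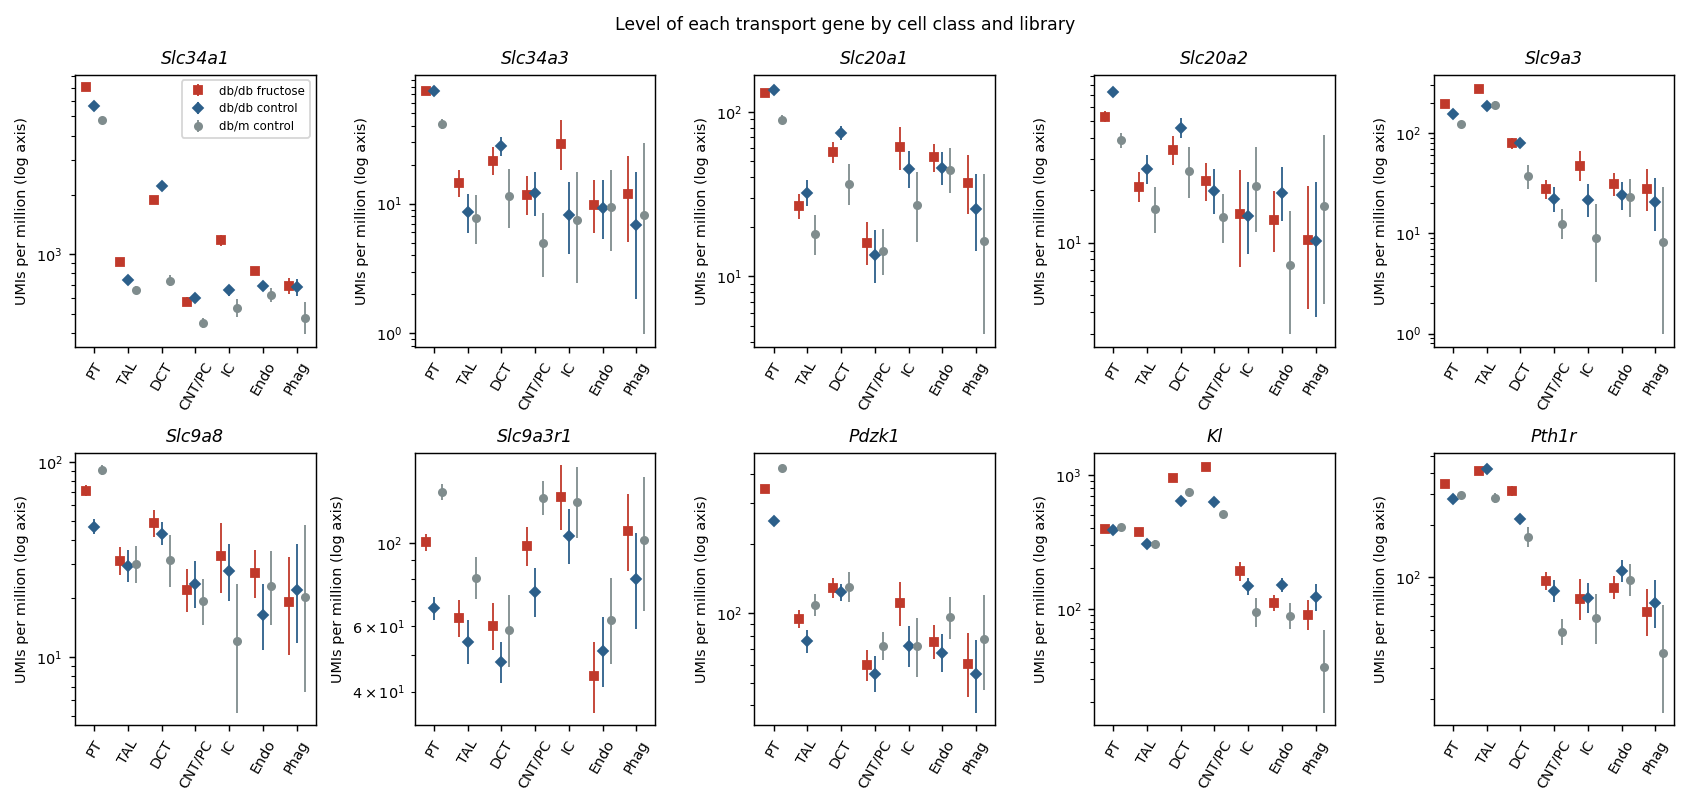
Level of each of the 10 genes in CPM (vertical, log axis) in 7 cell classes (PT proximal tubule-like, TAL thick ascending limb-like, DCT distal convoluted tubule-like, CNT/PC connecting tubule and principal-like, IC intercalated-like, Endo endothelium-like, Phag mononuclear phagocyte-like). Each point is 1 library and bars are exact Poisson 95% intervals: both Slc34 genes peak in PT, Slc9a3 and Pth1r reach TAL, and Kl is highest in DCT and CNT/PC.

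Slc9a3 (chr13:74121457-74169442), the gene of NHE3, was highest in thick ascending limb-like cells as named, and not in the proximal tubule. It stood at 275, 187 and 192 CPM there in db/db fructose, db/db control and db/m, and at 196, 155 and 124 CPM in proximal tubule-like cells. The order was the same in all 3 libraries, with intervals that did not overlap within a library. Within the thick ascending limb it was higher in the cluster led by Slc12a1 and Slc5a3 (408, 271 and 312 CPM) than in the cluster led by Umod and Slc12a1 (166, 124 and 138 CPM). Phagocyte-like cells had 28.0, 20.4 and 8.14 CPM. Distal convoluted tubule-like cells had 79.6, 79.0 and 37.1 CPM. An unnamed cluster led by Slc12a1, Umod and Egf, whose marker score was too low for a name, held 565 cells of db/db fructose, 3023 of db/db control and 112 of db/m, beside 2281, 1799 and 1218 cells in the thick ascending limb-like class. Its median mitochondrial share was 21.9%, 38.6% and 27.0%. With it included, the class stood at 255, 118 and 187 CPM of Slc9a3, so that in db/db control its level was below the proximal 155 CPM.

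Slc9a8 (chr2:167421712-167477000) encodes NHE8, an exchanger of the brush border and of endosomes. In proximal tubule-like cells it stood at 71.4 CPM in db/db fructose, 46.7 CPM in db/db control and 90.7 CPM in db/m. In db/db control this was close to its 42.9 CPM in distal convoluted tubule-like cells, and the intervals of 42.8 to 50.9 CPM and 37.4 to 49.1 CPM overlapped. In db/m the distal value was 31.4 CPM, far below the proximal one.

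The scaffold genes differed in reach. Pdzk1 (chr3:96829284-96870926) encodes a PDZ protein that holds brush border transporters, and it stood at 347, 251 and 427 CPM in proximal tubule-like cells of db/db fructose, db/db control and db/m. No other class of at least 100 cells in each library passed 186 CPM. Slc9a3r1 (chr11:115163341-115181181) encodes NHERF1, a PDZ protein that binds NaPi-IIa and NHE3, and it was spread over the classes. It stood at 101, 66.9 and 137 CPM in proximal tubule-like cells, at 133, 105 and 129 CPM in intercalated-like cells and at 98.2, 73.9 and 132 CPM in connecting tubule and principal-like cells. Phagocyte-like cells had 108, 79.9 and 102 CPM, as much as several tubule classes.

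Kl (chr5:150952607-150993817) encodes alpha-klotho, the coreceptor of FGF23, and was higher in the distal nephron than in the proximal tubule. It stood at 1142, 625 and 507 CPM in connecting tubule and principal-like cells and at 948, 641 and 745 CPM in distal convoluted tubule-like cells of db/db fructose, db/db control and db/m. In proximal tubule-like cells it was near the same in each library, 393, 386 and 405 CPM. Thick ascending limb-like cells had 377, 304 and 305 CPM. In db/db fructose the connecting tubule and principal-like value was above the distal convoluted one, in db/db control their intervals (593 to 658 CPM and 619 to 663 CPM) overlapped, and in db/m the distal convoluted value was the higher. Phagocyte-like cells had 89.9, 122 and 36.6 CPM.

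Pth1r (chr9:110722085-110747145, minus strand) encodes the receptor of parathyroid hormone. It was spread over the thick ascending limb (409, 420 and 287 CPM), the proximal tubule (342, 283 and 298 CPM) and the distal convoluted tubule (312, 216 and 171 CPM in db/db fructose, db/db control and db/m). In db/m the thick ascending limb and proximal intervals (267 to 307 CPM and 288 to 308 CPM) overlapped. Podocyte-like cells had more of it per UMI than any of these: 318 counts from 36 cells made 1426 CPM in db/m. The 26 counts from 3 cells in db/db fructose and 8 counts from 1 cell in db/db control are too few cells to compare. Pericyte, mesangial and smooth muscle-like cells had 161, 162 and 249 CPM from 112, 35 and 59 counts, and phagocyte-like cells 63.4, 71.4 and 36.6 CPM.

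The genes most like a member were sought over 21 points, 7 classes in 3 libraries, among 6844 genes. Points share libraries and their depth, so the correlations are descriptions. Slc34a1 was most like Slc47a1, G6pc and Nlrp6 (Pearson r of 0.99 for each on log2 CPM + 10). Kl was most like Kcnj16 (0.88), Tgfbr1 (0.87) and Bmp7 (0.86). Slc9a3 was most like Slc25a17 (0.93), Cldn10 (0.92), a thick ascending limb claudin, and Mfsd4b1 (0.91).

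The proximal tubule-like cells were next split by marker genes of early (S1 and S2) and late (S3) segments, none of them a member. Cells with more early than late marker UMIs made up 67.3%, 74.3% and 43.7% of the class in db/db fructose, db/db control and db/m, and cells with more late marker UMIs 29.0%, 20.1% and 50.4%. A difference of 1 UMI decided 633, 701 and 681 cells, so the split is a range and not 2 types.

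Slc34a3 was an early-segment gene in every library. Early cells had 98.9, 93.9 and 74.7 CPM in db/db fructose, db/db control and db/m, and late cells had 18.9, 13.1 and 14.6 CPM. The log2 ratio of late over early cells was -2.39 (-2.74 to -2.06) in db/db fructose, -2.84 (-3.42 to -2.32) in db/db control and -2.36 (-2.71 to -2.02) in db/m. The late values were near the 11.8, 6.80 and 8.14 CPM of phagocyte-like cells. Slc34a1, by contrast, was nearly as high in late cells (6802, 5064 and 4386 CPM) as in early cells (7136, 5859 and 5371 CPM).

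Slc20a1 ran the other way, with 170, 183 and 103 CPM in late cells and 114, 119.9 and 73.0 CPM in early cells. Its log2 ratio of late over early was 0.57, 0.61 and 0.50 in the 3 libraries, and each interval was above 0. Slc9a8 was higher in late cells only in some libraries. It had 86.1 and 116 CPM in late cells of db/db fructose and db/m, against 64.0 and 63.7 CPM in their early cells, while db/db control had 46.3 CPM in late and 46.5 CPM in early cells. Slc9a3, Slc9a3r1, Pdzk1 and Kl had log2 ratios of late over early between -0.19 and 0.15 in every library.

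**Figure D2:**
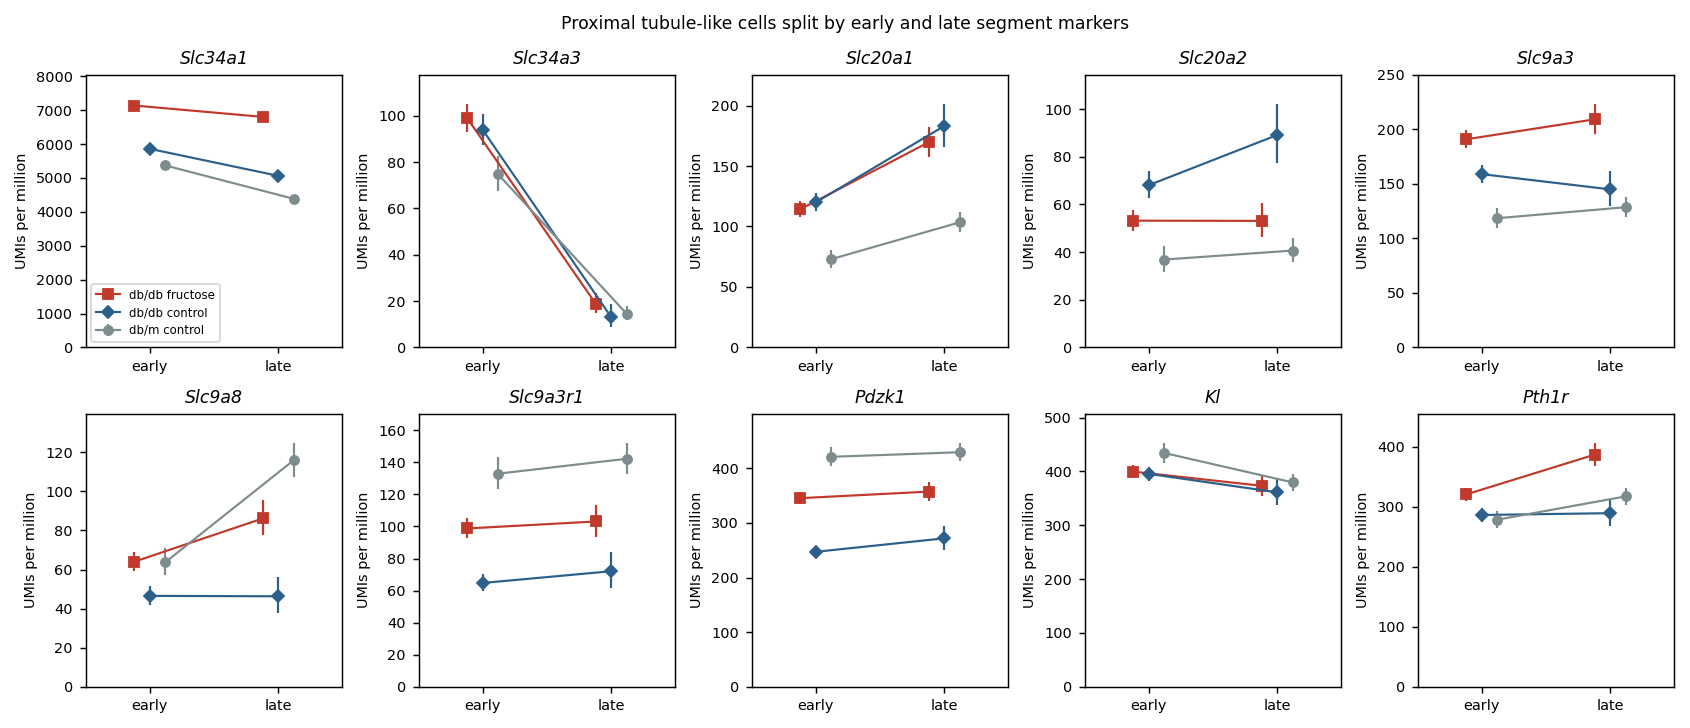
Level in CPM (vertical, linear) of each gene in proximal tubule-like cells with more early or more late segment marker UMIs (horizontal). Lines join the values of 1 library, and bars are exact Poisson 95% intervals: Slc34a3 stands at 18.9, 13.1 and 14.6 in late cells of db/db fructose, db/db control and db/m, and Slc9a8 is flat in db/db control, at 46.3 in late and 46.5 in early cells.

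The first comparison set db/db against db/m on the control diet, in proximal tubule-like cells. Of the 10 members, 3 phosphate importers were higher and the scaffold genes and NHE8 lower in db/db control. A gene counted as measured at 10 CPM in either library and as different at 1.5-fold: 3 members were higher (Slc34a3, Slc20a1 and Slc20a2) and 3 lower (Slc9a8, Slc9a3r1 and Pdzk1). Of all 8694 genes measured there, 6.99% were higher and 15.2% lower. The members' median log2 ratio was 0.08, against -0.02 over all measured genes.

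Slc20a2 was 1.90-fold higher, with 73.1 CPM in db/db control and 38.5 CPM in db/m (828 and 453 counts, log2 ratio 0.92, 0.76 to 1.09). Slc20a1 was at the edge of the limit, 1.50-fold higher with 135 CPM in db/db control and 89.5 CPM in db/m (0.59, 0.48 to 0.70). Both were higher in early and in late cells: the log2 ratio of Slc20a2 was 0.88 in early and 1.13 in late cells, and that of Slc20a1 was 0.72 and 0.82. In the only cluster with at least 300 proximal tubule-like cells of every library (3018, 347 and 1993 cells in db/db fructose, db/db control and db/m) the ratios were 0.45 and 0.54, both below the limit.

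Slc34a3 was 1.80-fold higher in db/db control over the whole class (log2 0.84, 0.68 to 1.01). Within early cells, which were 74.3% of the class in db/db control and 43.7% in db/m, the log2 ratio was 0.33 (0.15 to 0.51). Within late cells it was -0.15 (-0.80 to 0.46). Neither segment alone reached the 1.5-fold limit. Slc34a1 was 1.18-fold higher (0.24) and Slc9a3 1.24-fold higher (0.31), both under the limit. Kl and Pth1r differed least, at -0.07 each.

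Slc9a3r1 had the lowest ratio of the members, with 66.9 CPM in db/db control and 137 CPM in db/m (758 and 1614 counts, log2 ratio -1.04, -1.16 to -0.91). Early and late cells gave -1.04 and -0.98. Its level differed between clusters, however. In db/m it was 346 CPM in a cluster of 50 cells with a median of 12775.5 UMIs and 185 CPM in a cluster led by Kap and Acy3 that held 1585 cells of db/m (26.3% of its class), against 62 cells of db/db control (0.94%). In the cluster shared by all libraries it stood at 68.0 CPM in db/db control and 90.2 CPM in db/m, a log2 ratio of -0.41. Pdzk1, at 251 and 427 CPM over the class (-0.77, -0.83 to -0.70), was 257 and 367 CPM in that cluster (-0.52).

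Slc9a8 was lower in db/db control, with a log2 ratio of -0.96 (-1.11 to -0.81), from 529 and 1066 counts. The difference was larger in late cells (46.3 CPM in db/db control, 116 CPM in db/m, log2 ratio -1.32, -1.63 to -1.03) than in early cells (46.5 and 63.7 CPM, -0.45, -0.67 to -0.24). In the shared cluster, which is one of early cells, it was -0.64. The shares of cells with a UMI at 1000 UMIs followed the CPM values: 4.16% in db/db control and 9.04% in db/m for Slc9a8, and 6.36% and 10.3% for Slc9a3r1. Without thinning they were 7.64% and 14.3% for Slc9a8 and 10.7% and 18.2% for Slc9a3r1. Thinned phagocyte-like cells had 0.532% in db/db control and 1.56% in db/m for Slc9a8, but 5.32% and 18.8% for Slc9a3r1, so its share in the proximal tubule did not stand above theirs in db/m. The median mitochondrial share was 20.8% in db/db control and 14.6% in db/m proximal tubule-like cells. In cells held to 10% to 20% mitochondrial UMIs, Slc9a8 was at -0.72, Slc9a3r1 at -0.86 and Pdzk1 at -0.76, and Slc34a3, Slc20a1 and Slc20a2 were at 0.60, 0.78 and 1.14.

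**Figure D3:**
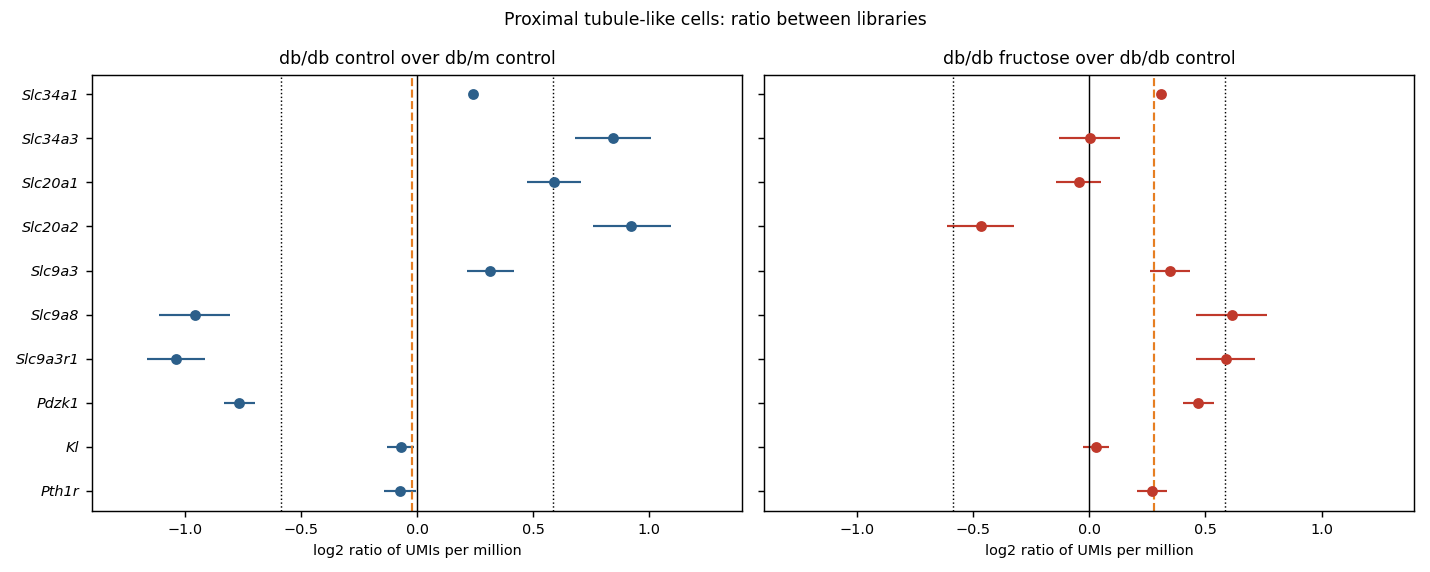
Log2 ratio of CPM (horizontal) for each gene in proximal tubule-like cells, db/db control over db/m (left) and db/db fructose over db/db control (right), with exact 95% intervals for counting error. Dotted lines mark 1.5-fold and the dashed line the median of all measured genes, -0.02 at left and 0.28 at right.

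The second comparison set the fructose diet against the control diet in db/db mice. Here the scale itself was shifted: over the 8981 measured in proximal tubule-like cells the middle log2 ratio was 0.28, while the median mitochondrial share was 9.24% in db/db fructose and 20.8% in db/db control. The same median was 0.21 in thick ascending limb-like, 0.12 in distal convoluted tubule-like and 0.31 in intercalated-like cells. Before allowance for this, 2 members were higher by 1.5-fold (Slc9a8 and Slc9a3r1) and 0 lower, where 12.4% of all genes were higher and 1.47% lower. Both lay at the limit, 1.53-fold for Slc9a8 and 1.50-fold for Slc9a3r1. Pdzk1 followed at 1.38-fold (347 CPM in db/db fructose, 251 CPM in db/db control).

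Relative to the median gene, Slc9a8 was 0.34 and Slc9a3r1 0.31 higher on the log2 scale, and neither passed the limit. Slc34a1, at 7009 CPM in db/db fructose and 5660 CPM in db/db control, was 0.31 higher before and 0.03 after this allowance, and Slc9a3 (196 and 155 CPM) 0.35 before and 0.07 after. Kl (393 and 386 CPM) was at -0.25 relative to the median and Slc34a3 (74.3 and 74.2 CPM) at -0.27. Slc20a2 had the lowest ratio, with 52.8 CPM in db/db fructose and 73.1 CPM in db/db control, a log2 ratio of -0.47 (-0.61 to -0.33) and of -0.74 relative to the median. Both comparisons share the db/db control library.

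Beyond the proximal tubule, Kl was higher with fructose in connecting tubule and principal-like cells. It stood at 1142 CPM there in db/db fructose, 625 CPM in db/db control and 507 CPM in db/m. The log2 ratio of db/db fructose over db/db control was 0.87 (0.78 to 0.96), and 0.62 relative to the median of 0.25 over all genes of the class. Of 10 members, Kl alone was higher by 1.5-fold and 0 were lower, where 18.5% of all genes were higher and 2.48% lower. It was higher in both clusters of the class, at 1430, 850 and 930 CPM in the larger (1899 cells, led by Aqp2 and Hsd11b2 with S100g) and at 534, 158 and 196 CPM in the smaller (519 cells, led by Aqp2 and Hsd11b2 with Fxyd4). The log2 ratios of db/db fructose over db/db control were 0.75 (0.65 to 0.84) and 1.76 (1.47 to 2.06), before allowance for the median gene of each cluster. In the larger cluster the median mitochondrial share was 17.6% in db/db fructose and 29.1% in db/db control. Set against db/m, db/db control had a log2 ratio of 0.30 (0.19 to 0.41) in the class but of -0.13 (-0.25 to -0.01) and -0.31 (-0.63 to -0.0039) in its clusters. The smaller cluster, where Kl is lower, held 17.3% of the class in db/db control and 32.9% in db/m.

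The Pvalb-led distal convoluted cluster had 1077 CPM of Kl in db/db fructose, 557 CPM in db/db control and 790 CPM in db/m (log2 ratio of db/db fructose over db/db control 0.95, 0.82 to 1.08). Pth1r in that cluster was 293, 139 and 157 CPM, with a ratio of 1.08 (0.81 to 1.34), and the median of all genes there was 0.20. The larger distal cluster, led by Abca13 and with 1009 of the 1277 db/db fructose cells, had 895, 680 and 702 CPM of Kl and 320.2, 252 and 184 CPM of Pth1r. Its log2 ratios of db/db fructose over db/db control were 0.40 (0.31 to 0.48) and 0.35 (0.20 to 0.49), both under the limit. Over the whole distal convoluted class no member passed the limit in this comparison, with 6.29% of all genes higher and 1.81% lower. There Kl was at 0.57, or 0.44 relative to the median gene, and Pth1r at 0.53.

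**Figure D4:**
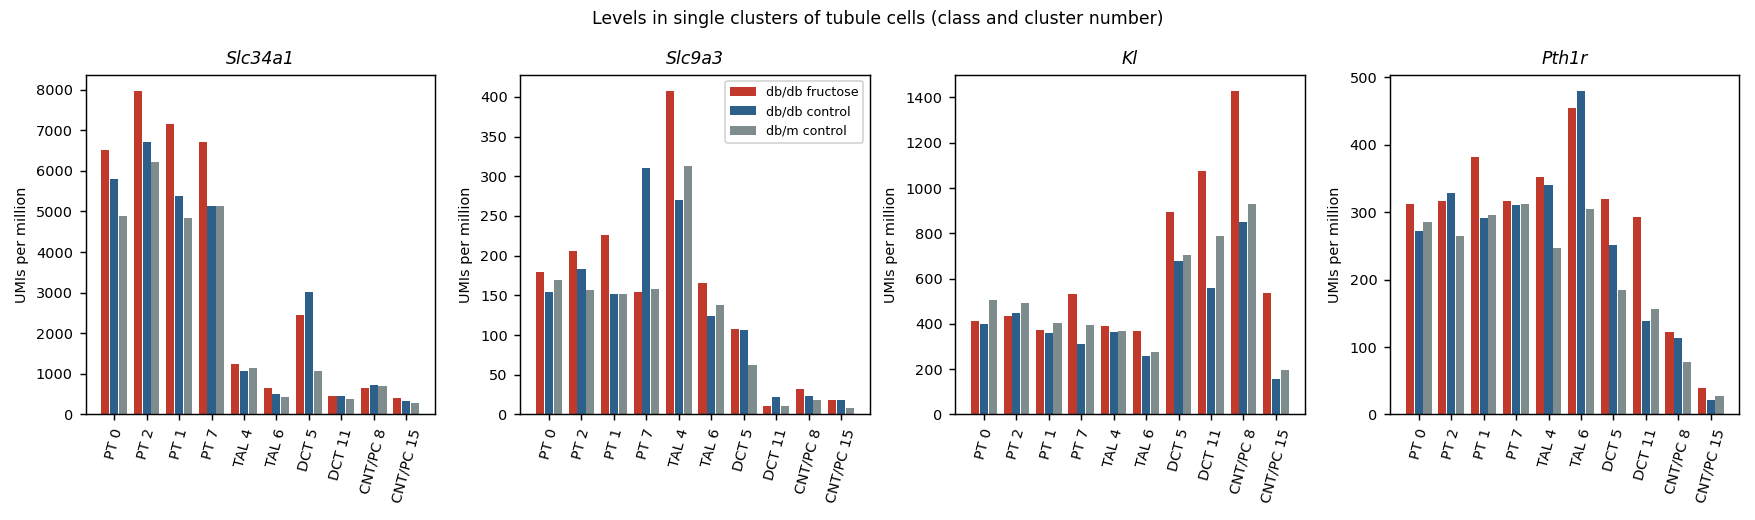
Level in CPM of Slc34a1, Slc9a3, Kl and Pth1r in single clusters of tubule cells, named by class and cluster number (PT 0 and 2 early, PT 1 and 7 late; CNT/PC 15 is the smaller connecting tubule and principal-like cluster), 1 bar per library. DCT 5 holds more Slc34a1 (2459, 3025 and 1061) than DCT 11 (462, 449 and 384). Kl is highest in db/db fructose in every TAL, DCT and CNT/PC cluster shown, though by little in TAL 4 (389, 366 and 367). PT 7 held only 75 and 7 cells of db/db fructose and db/db control, and PT 1 and PT 0 only 67 and 178 cells of db/m.

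For db/db control over db/m, distal convoluted tubule-like cells had 5 of 10 members higher and 0 lower, where 16% of all genes were higher and 10.1% lower. These were Slc34a1, Slc34a3, Slc20a1, Slc20a2 and Slc9a3, all with proximal tubule levels above the distal ones, and with each library clustered on its own the log2 ratio of each was below 0. Thick ascending limb-like cells had 2 of 9 measured members higher, Slc20a1 (0.84) and Slc20a2 (0.77), and 0 lower, where 7.8% of all genes were higher and 4.24% lower. Slc20a1 stood at 32.2 CPM in db/db control and 18 CPM in db/m, beside 25.5 and 16.3 CPM in phagocyte-like cells. Slc20a2 stood at 26.4 and 15.5 CPM, beside 10.2 and 16.3 CPM in phagocyte-like cells. Pth1r was just under the limit in thick ascending limb-like cells (420 CPM in db/db control, 287 CPM in db/m, log2 0.55). So were, in the other direction, Slc9a3r1 (54.4 CPM in db/db control, 80.8 CPM in db/m, -0.57) and Pdzk1 (75.8 and 109 CPM, -0.52). In the Slc5a3-led cluster Slc9a3r1 was 41.6 CPM in db/db control and 108 CPM in db/m (-1.38), beside proximal markers at 5382 and 8855 CPM. With fructose, Slc34a3 alone was higher in these cells (14.4 CPM in db/db fructose, 8.56 CPM in db/db control, log2 0.75), where 9.5% of all genes were higher and 1.33% lower, and Slc9a3 was at 0.56. Relative to the median gene Slc34a3 was at 0.55, under the limit, and phagocyte-like cells had 11.8 CPM of it in db/db fructose and 6.80 CPM in db/db control.

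The thick ascending limb calls changed when the unnamed Slc12a1-led cluster was included. For db/db control over db/m, Slc20a1 stayed past the limit (0.60) and Slc20a2 missed it (0.47), while Slc34a1 (0.69), Slc9a3 (-0.67) and Slc9a3r1 (-0.59) passed it and Pth1r was at 0.14. With fructose, Slc9a3 was higher (255 CPM in db/db fructose, 118 CPM in db/db control) and Slc34a3 was at 0.05. The part of the mitochondrial share in these values was not tested.

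Connecting tubule and principal-like cells had 3 of 10 members higher in db/db control over db/m and 1 lower, where 6.67% of all genes were higher and 14.7% lower. The lower one was Slc9a3r1 (73.9 CPM in db/db control, 132 CPM in db/m, log2 -0.84, -1.11 to -0.58). It stood at 48.7 and 103 CPM in the larger cluster of the class and at 126 and 154 CPM in the smaller. The smaller cluster held 17.3% of the class in db/db control and 32.9% in db/m. Phagocyte-like cells had 79.9 and 102 CPM of Slc9a3r1. The higher ones, Slc34a3, Slc9a3 and Pth1r, stood at 12.1, 22.0 and 83.4 CPM in db/db control, each with an interval that overlapped the phagocyte-like one around 6.80, 20.4 and 71.4 CPM. In intercalated-like cells Slc34a1 was 1180 CPM in db/db fructose, 657 CPM in db/db control and 534 CPM in db/m. There 11 of the 16 proximal markers were also higher with fructose, and 4 of 10 members were higher and 0 lower, where 30.5% of all genes were higher and 6.1% lower. For db/db control over db/m, 4 of 9 members were higher there (Slc20a1, Slc9a3, Slc9a8 and Kl) and 0 lower, where 11.1% of all genes were higher and 12.9% lower. Slc9a3 stood at 21.7 CPM in db/db control and 9.02 CPM in db/m, beside 20.4 and 8.14 CPM in phagocyte-like cells. Kl stood at 147 and 94.7 CPM, beside 122 and 36.6 CPM in phagocyte-like cells. Slc20a1 stood at 44.8 and 27.1 CPM, beside 25.5 and 16.3 CPM, and Slc9a8 at 27.6 and 12.0 CPM, beside 22.1 and 20.3 CPM. The part of free RNA in these values was not tested.

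Outside the tubule the counts were small for some members. In endothelium-like cells, 2 of 9 measured members were higher in db/db control over db/m (Slc20a2 and Kl) and 0 lower, where 9.61% of all genes were higher and 14.3% lower. Kl stood at 150 CPM in db/db control and 88.7 CPM in db/m, beside 122 and 36.6 CPM in phagocyte-like cells. Slc20a2 stood at 19.3 and 7.4 CPM, beside 10.2 and 16.3 CPM in phagocyte-like cells. With fructose 1 of 9 was higher in endothelium-like cells (Slc9a8, from 52 counts in db/db fructose and 28 in db/db control) and 0 lower, where 15.2% of all genes were higher and 3.13% lower. Pericyte, mesangial and smooth muscle-like cells, only 101 of them in db/db control, had 2 of 8 members higher and 4 lower in db/db control over db/m, where 21.3% of all genes were higher and 26.6% lower. With fructose 4 of 10 were higher and 1 lower, where 28.2% of all genes were higher and 12.9% lower. There 9 of the 16 proximal markers were also lower in db/db control than in db/m.

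The other genes of phosphate and acid-base handling were read in proximal tubule-like cells, from lists of named pathways. Their ratios, here and in the next paragraphs, are over the whole class and were not split by segment or cluster. Of all genes measured there, 6.99% were higher and 15.2% lower in db/db control over db/m, and 12.4% were higher and 1.47% lower with fructose, where the median gene was at 0.28. Vitamin D genes were higher in db/db control than in db/m for 3 of 4 measured, and 0 were lower. Cyp24a1, which breaks down active vitamin D, stood at 409, 527 and 57.5 CPM in db/db fructose, db/db control and db/m, Cyp27b1, which makes it, at 130, 51.0 and 15.1 CPM, and the receptor gene Vdr at 225, 298 and 142 CPM. With fructose over control diet, Cyp27b1 alone was higher (log2 1.35, or 1.08 relative to the median gene), while Cyp24a1 was at -0.37 and Vdr at -0.41, or -0.64 and -0.69 relative to the median gene. Cyp27b1 was highest in the fructose library and Cyp24a1 in the db/db control library. Cyp24a1 was among the leading genes of a proximal tubule-like cluster with 2158, 3854 and 178 cells of db/db fructose, db/db control and db/m. The part of this cluster mix in its ratios was not tested.

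Of the receptors and signal partners of FGF23 and parathyroid hormone, 0 of 5 measured were past 1.5-fold between db/db control and db/m. The 3 with the largest ratios were Casr (0.40), the calcium-sensing receptor, Fgfr3 (0.35) and Gnas (-0.27), the stimulatory G protein. With fructose 1 of 5 was higher, Fgfr4, an FGF receptor (78.4 CPM in db/db fructose and 49.7 CPM in db/db control, log2 0.66), and Casr was at -0.57 and Fgfr3 at 0.54. Relative to the median gene Fgfr4 was at 0.38, under the limit, and Casr at -0.85, past it. Casr stood at only 8.04, 11.9 and 9.02 CPM in db/db fructose, db/db control and db/m, near the 10 CPM needed to be measured. Its highest class was thick ascending limb-like cells. Stc1, the phosphate-regulating hormone stanniocalcin 1, was too low in proximal tubule-like cells to be measured. In connecting tubule and principal-like cells it stood at 492, 104 and 153 CPM in db/db fructose, db/db control and db/m, a value picked out after it was seen.

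Among other phosphate transporters, 0 of 5 measured were higher and 2 lower in db/db control over db/m, Slc17a3 (163 CPM in db/db control and 347 CPM in db/m, log2 -1.09) and Slc17a1 (-0.72), both carriers of urate and other organic anions. Slc17a3 was among the leading genes of a proximal tubule-like cluster with 75, 7 and 2161 cells of db/db fructose, db/db control and db/m. The part of this cluster mix in its ratio was not tested. Slc37a4, the glucose-6-phosphate carrier, was at 0.32. With fructose Slc17a3 (0.85) and Slc37a4 (0.60) were higher, at 0.57 and 0.32 relative to the median gene and so both under the limit, and Slc17a1 was at 0.35. Slc9a2, another sodium/proton exchanger, stood at 22.6, 13.2 and 11.5 CPM in db/db fructose, db/db control and db/m. Its log2 ratio was 0.20 for db/db control over db/m and 0.78 for db/db fructose over db/db control, or 0.51 relative to the median gene.

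In the list of scaffold partners and proximal acid-base genes, 2 of 9 measured were higher and 2 lower in db/db control over db/m. Sgk1, a kinase that activates NHE3, stood at 164, 315 and 89.4 CPM in db/db fructose, db/db control and db/m, a log2 ratio of 1.82 with genotype and -0.94 with fructose. Its highest class was endothelium-like cells. Car4, the membrane carbonic anhydrase, stood at 30.6, 35.3 and 95.8 CPM (-1.44 with genotype), and Pdzk1ip1, a partner of Pdzk1, at 442, 314 and 537 CPM (-0.78). The other higher one was Slc9a3r2, at 0.69, named after its value was seen. It stood at only 11.8 CPM in db/db control and 7.32 CPM in db/m, and its highest class was endothelium-like cells. With fructose Sgk1 was the 1 lower of 10 and 3 were higher, Car14 (0.91), another membrane carbonic anhydrase, Slc26a6 (0.70), an anion exchanger, and Dpp4 (0.60), a brush border peptidase named to complete the count. Relative to the median gene Car14 was at 0.63, still past the limit, Slc26a6 at 0.42 and Dpp4 at 0.32, both under it, and Sgk1 at -1.22.

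The values of the 6 genes past the limit between db/db control and db/m were recomputed under 19 other settings (17 for Slc9a3r1). Slc9a3r1 gave no ratio with the lymphocyte-like or the phagocyte-like level subtracted, because a level left after subtraction was not above 0. In db/db control, phagocyte-like cells had 79.9 CPM of it and proximal tubule-like cells 66.9 CPM. Slc20a2, at 18 of 19, Pdzk1, at 18 of 19, and Slc9a3r1, at 16 of 17, missed the limit only in the shared cluster alone. Slc9a8 passed it in 17 of 19, Slc34a3 in 14 of 19 and Slc20a1 in 12 of 19.

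**Figure D5:**
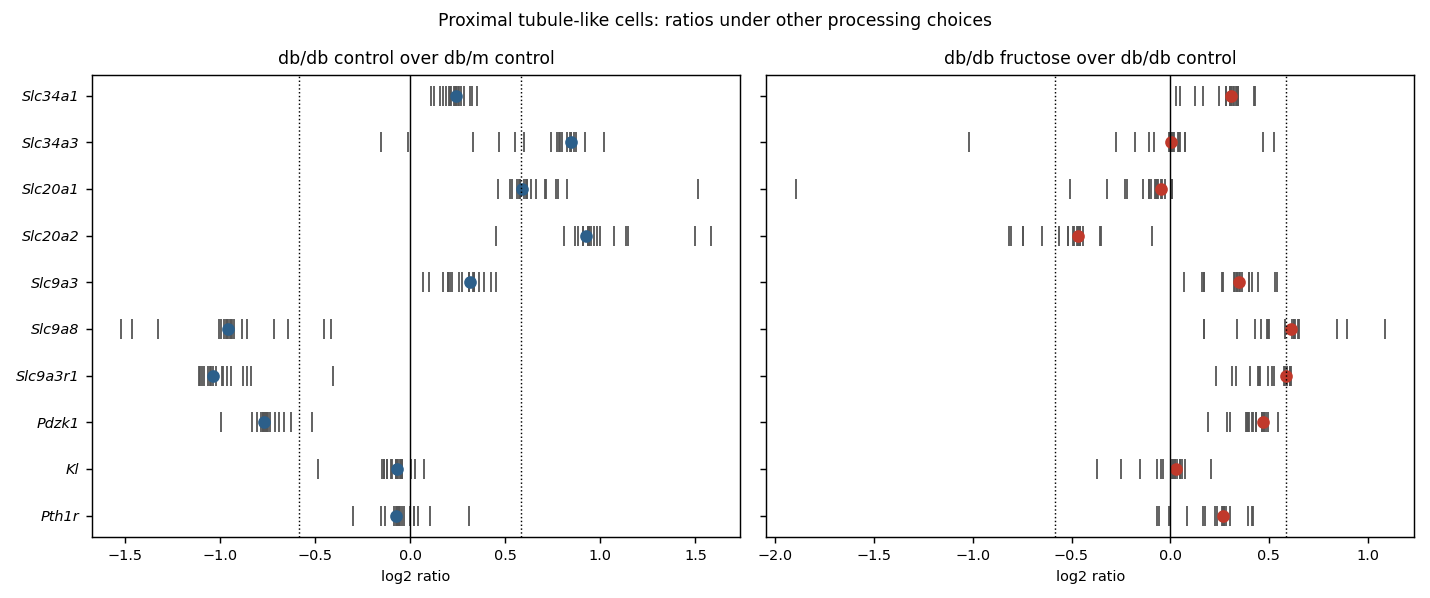
Log2 ratio (horizontal) of each gene in proximal tubule-like cells, as reported (filled circle) and under each other processing choice (vertical ticks), db/db control over db/m (left) and db/db fructose over db/db control (right). Dotted lines mark 1.5-fold. At left Slc20a2, Slc9a8, Slc9a3r1 and Pdzk1 keep their side of 0 under every choice that gave a ratio, while Slc34a3 spans -0.15 to 1.02.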

How the data were processed

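Single-cell RNA was measured with 10x Genomics droplets in 1 library for each of 3 groups. The deposited values are raw UMI counts for every gene and barcode, which the authors obtained from Cell Ranger 6.0.0, per the file headers, on mm10 per the submitters' processing notes. The gene annotation and how cells were called are not given in the sources used here, and counting error is the only error that 1 library per group allows.

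A cell was kept if it had 200 or more genes and no more than 50% of its UMIs from mitochondrial genes, and those with the highest simulated-doublet scores were removed at a rate of 0.8% per 1000 barcodes (16.3%, 21.2% and 10.8% of cells in db/db fructose, db/db control and db/m). This rate was set beforehand and not read from the scores. The 3 libraries were clustered together with scanpy 1.11.5 (2000 variable genes, 30 components, Leiden resolution 1) without the 10 members and their related genes. Clusters were named from marker lists by rebuilt rules, revised after the clusters were seen, and clusters without a clear match stayed unnamed. A difference from the study's own cell types may come from these names.

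Counts were summed over the cells of a class and library and given as CPM with exact Poisson intervals. Ratios carry exact conditional binomial intervals, shares of cells exact Clopper-Pearson intervals, all at 95%. A difference is 1.5-fold at 10 CPM in either library. Counts were also simulated by Poisson draws, without spread between cells, clusters or mice. There, 95.5% of intervals for 8368 genes (db/db control over db/m) and 95.2% for 8681 genes (db/db fructose over db/db control) held the true ratio. Such intervals are built to hold for Poisson counts, so this checks the calculation only. The members and lists were chosen with earlier results of these data known. All 10 members are named, and of each related list up to 3 genes per comparison with the largest absolute log2 ratio among those measured, with 3 most alike genes for Slc34a1, Kl and Slc9a3. Some genes of the sodium/proton exchanger list are not reported here. Stc1, Slc9a3r2 and Dpp4 were added after their values were seen. Gene positions are from GENCODE M21 on mm10 and promoters from RefSeq on GRCm38.p6.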

Additional observations from a re-analysis of the deposited data

Results flagged for a closer look

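Slc9a8 moved in opposite directions in 2 cell classes between db/db control and db/m. In intercalated-like cells it stood at 27.6 CPM in db/db control and 12.0 CPM in db/m, a log2 ratio of 1.2 (0.07 to 2.51) that rests on 37 and 8 counts. The intervals of these levels overlapped those of phagocyte-like cells, which had 22.1 CPM in db/db control and 20.3 CPM in db/m. In proximal tubule-like cells it stood at 46.7 CPM in db/db control and 90.7 CPM in db/m, a log2 ratio of -0.96. Each class has 1 library per group, and the difference between the classes was not tested.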

How the results depend on the processing

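For db/db control over db/m in proximal tubule-like cells, the count of 3 members higher and 3 lower by 1.5-fold became 0 higher and 1 lower both in the shared cluster alone (Slc9a8) and at a 2-fold limit (Slc9a3r1). For db/db fructose over db/db control, the count of 2 members higher was 0 with at most 30% mitochondrial UMIs, each library clustered on its own, median-of-ratios size factors, CPM over non-mitochondrial UMIs, the lymphocyte-like level subtracted, cells with 10% to 20% mitochondrial UMIs, the shared cluster alone, and a 2-fold limit. It was 1 with no doublet removal, Leiden resolution 0.5, the phagocyte-like level subtracted, cells under 10000 UMIs, and every cell weighted equally. The count was also 1 in early and in late cells, split by all 10 late markers or by 5 of them. Those 5 leave out the late markers known for higher male expression. By these 5, late cells were 27.6%, 18.8% and 42.4% of the class in db/db fructose, db/db control and db/m. The count of 0 lower was 1 (Slc20a2) with size factors, non-mitochondrial CPM and cells with 10% to 20% mitochondrial UMIs. It was also 1 (Slc20a2) in late cells, by all 10 late markers or by 5 of them. With the lymphocyte-like level subtracted it was 2 (Slc34a3 and Slc20a1). The lymphocyte-like class held only 26, 16 and 27 cells with 52975, 41516 and 70902 UMIs in db/db fructose, db/db control and db/m, so its level rests on few counts.

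Of 324 recomputed values of ratios past the 1.5-fold limit, 12 changed sign, all of db/db control over db/m. In distal convoluted tubule-like cells, clustering each library on its own gave -0.024 for Slc34a1, -0.57 for Slc34a3, -0.27 for Slc20a1, -0.094 for Slc20a2 and -0.27 for Slc9a3. There, cells with 10% to 20% mitochondrial UMIs gave -0.32 for Slc34a3, and equal weight per cell gave -0.037 for Slc20a1 and -0.13 for Slc9a3. Slc34a3 was at -0.15 in late proximal tubule-like cells (-0.0096 with 5 of the 10 late markers). In connecting tubule and principal-like cells, subtracting the phagocyte-like level gave -1.43 for Slc9a3 and -0.012 for Pth1r. The causes were not tested. Of the other values for single genes, 837 moved by less than their counting interval and 327 by more, and of 852 recomputed values of ratios under the limit 112 changed sign. In proximal tubule-like cells such ratios spanned -0.49 to 0.075 for Kl and -0.30 to 0.31 for Pth1r in db/db control over db/m. In db/db fructose over db/db control they spanned -1.02 to 0.53 for Slc34a3, -1.90 to 0.01 for Slc20a1, -0.37 to 0.20 for Kl and -0.069 to 0.42 for Pth1r. The lowest values of Slc34a3 and Slc20a1 were those with the level of the few lymphocyte-like cells subtracted. The phagocyte-like subtraction, the mitochondrial window, the split by 5 of the 10 late markers and the UMI limits were chosen after seeing the data. So were equal weights, the shared cluster and the added thick ascending limb cluster. No paired analysis was possible because each group has 1 library and no replicate number. Low counts limit Slc34a3 outside the proximal tubule, Slc20a2 and Slc9a8 in intercalated-like and endothelium-like cells, and most members in pericyte, mesangial and smooth muscle-like cells.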
